A study of Mus musculus with 9 samples.

Results

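Lmna, the mouse gene for the nuclear lamins A and C, was followed probe set by probe set in fat from mice that carry altered Lmna alleles. A probe set is a small group of array probes that report on 1 stretch of a transcript, usually within 1 exon. The members are the probe sets whose single gene symbol in the platform's probe-to-gene table is Lmna, 17 of the 229581 on the array, and no probe set named Lmna together with another gene. Perigonadal white adipose tissue, the fat depot beside the gonads, was taken at an age of 4 months. There were 3 arrays of wild-type (WT) fat, 3 of fat with G609G on both copies of Lmna (G609G/G609G) and 3 with LCS on both copies (LCS/LCS). Both alleles are carried in the germ line, so every cell type in a sample holds them. The labels give no further alleles, agents or strain for these groups. They do not tie each array to an animal of its own, so the p-values measure only how these samples vary, and that variation may be technical.

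Lamins are intermediate filament proteins that line the inside of the nuclear envelope. Lamin A and lamin C come from the same gene by alternative processing of the 3′ part of the transcript, and lamin A is made as a farnesylated precursor that the protease Zmpste24 cuts to its mature form. G609G is known as a progeria allele in which a cryptic splice site shortens the lamin A message, giving progerin, and LCS as an allele that yields lamin C without lamin A. A further product, lamin C2, is known from male germ cells and starts from its own first exon. The sources used here do not pair probe sets with exons, so each is named by its platform identifier, and none is assigned to lamin A, C or C2.

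The array values are log2 intensities as deposited, on which a difference of 1 is a doubling. The array medians over all probe sets were 7.17 to 7.28 in WT, 6.52 to 6.63 in G609G and 7.19 to 7.26 in LCS. Over the 172179 probe sets above an intensity filter (5.01, the 25th percentile of probe set means), the median difference was -0.48 for G609G minus WT, 0.05 for LCS minus WT and -0.50 for G609G minus LCS. Levels in G609G are therefore also given relative to the median probe set. The adipocyte list (14 genes, among them Adipoq and Plin1) had an array mean of 11.98 to 12.03 in WT, 11.08 to 11.13 in G609G and 12.19 to 12.21 in LCS, so the labelled tissue was present in each group. Of these, Lep, the gene for the fat hormone leptin, lay under the gene filter of 5.09 in G609G, averaging 4.76 there, 10.63 on the WT arrays and 11.78 on those of LCS. Skeletal muscle transcripts stood at 11.43 to 11.47 in G609G against 5.38 to 5.48 in WT and 5.65 to 5.73 in LCS (14 genes). Epididymis and testis transcripts stood at 11.47 to 11.49 in WT, 8.26 to 8.41 in G609G and 9.36 to 9.46 in LCS (16 genes). Where the muscle and tract transcripts came from, and their part in the Lmna values, was not tested. In bulk tissue, fewer cells of a type and less RNA per cell cannot be told apart.

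**Figure D1:**
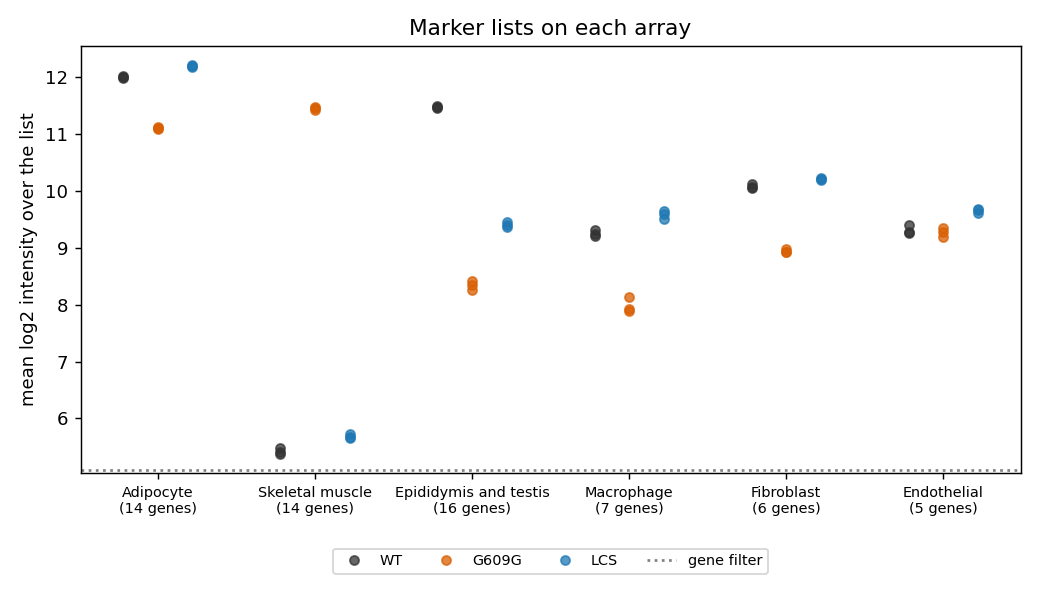
Mean log2 intensity (vertical axis) of 6 marker lists on each array, with black points for WT, orange for G609G and blue for LCS; the dotted line is the gene filter at 5.09. The muscle list is high on the 3 G609G arrays, and the epididymis and testis list is highest on the 3 WT arrays.

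Most Lmna probe sets were well measured in all groups. Of the 17 probe sets, 16 had a mean over the 9 arrays above the filter, and the remaining one, 4584993, was not tested. Its values were 5.25, 5.30 and 4.88 in WT, 3.95, 5.17 and 4.04 in G609G, and 4.76, 5.0 and 4.50 in LCS, with overlapping groups. Probe set 4307703 lay just inside the filter, with 6.01, 6.05 and 5.46 in WT, 4.70, 4.96 and 4.87 in G609G and 5.50, 5.57 and 5.76 in LCS. It is the other dim probe set of the gene, and its values in G609G were below those of the other groups. All of its G609G values lay under the filter, which it passed through WT and LCS, so its differences from G609G are not exact in size. Among the bright probe sets, 4938777 read 8.60, 8.51 and 8.72 in WT, 8.16, 8.17 and 8.01 in G609G, and 8.81, 8.54 and 8.83 in LCS. Here too the G609G arrays were lowest, while WT and LCS overlapped. The SD of a Lmna probe set within a group of 3 arrays had a median of 0.20 and ran from 0.05 to 0.68.

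**Figure D2:**
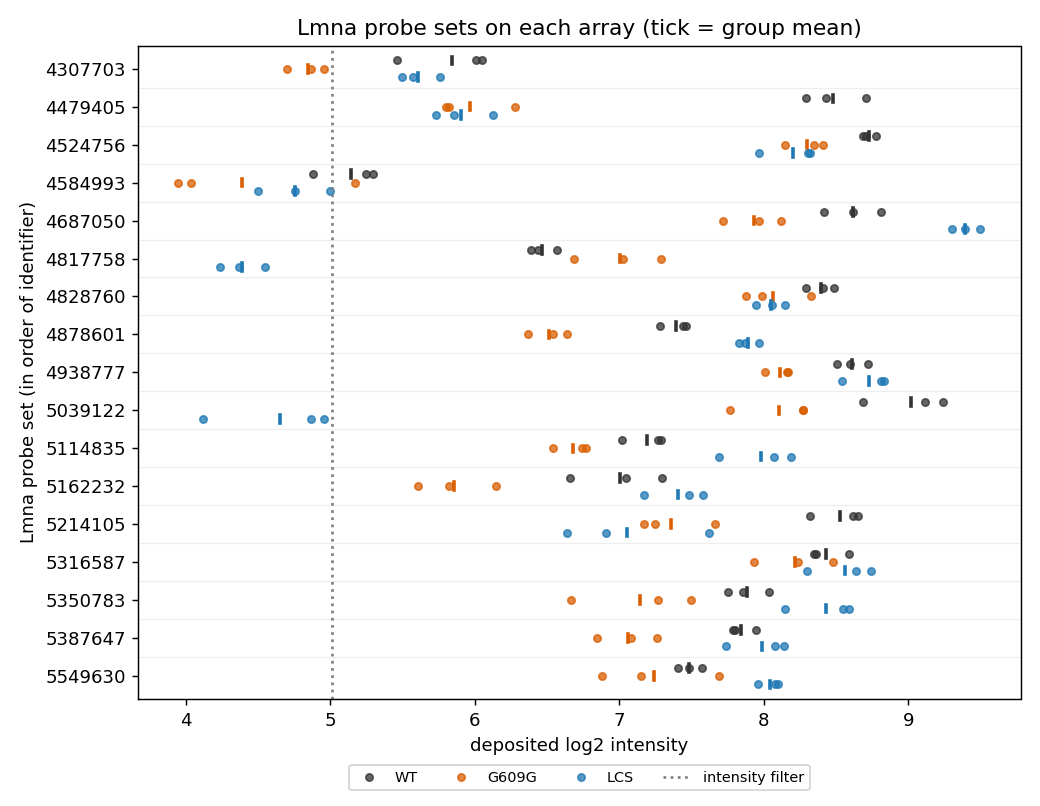
Deposited log2 intensity (horizontal axis) of the 17 Lmna probe sets, in order of identifier, on 9 arrays; points are arrays, ticks are group means, and the dotted line is the filter at 5.01. In LCS, 5039122 and 4817758 lie left of the filter, and 4479405 is lower in both mutants than in WT.

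The 3 probe sets that departed most from the rest of Lmna in LCS were 5039122, 4479405 and 4817758. The departure is measured by the splicing index, the log2 value of a probe set minus the log2 level of its gene on the same array, in which a uniform offset between arrays cancels. The gene level was the median polish of all its probe sets, and differences in the index were tested with limma over the 156218 probe sets of 12923 genes. In LCS minus WT these 3 were called lower and none was called higher among the 16 tested. The difference was positive in 9 of the 16. With the plain mean as gene level 3 were called lower and 5 higher, and with diffSplice 4 lower and 6 higher. In that comparison 0.851% of all probe sets tested were called (0.319% higher, 0.531% lower), and 5.97% of genes held at least 1 called probe set. In 12 of the 16 the index of the LCS arrays did not overlap with that of WT, as in 18.9% of all probe sets tested.

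Probe set 5039122 had the largest fall. Its intensities were 9.12, 8.69 and 9.24 in WT, 8.27, 7.77 and 8.27 in G609G, and 4.12, 4.96 and 4.87 in LCS. The LCS arrays stood apart from all others and every one lay under the filter, and the probe set passed the filter through WT and G609G. The size of the differences from LCS is therefore not exact, and the deposited ones may understate the fall. The level was -4.37 in LCS minus WT (SE 0.26, adjusted p = 1.27e-08 by limma over all probe sets). Its splicing index fell by 4.46 (SE 0.28, adjusted p = 0.000307 by limma). In G609G the picture differed: the index was 0.88 ± 0.37, while WT had 1.19 ± 0.23 (SD, n = 3 arrays), and the difference of -0.31 (SE 0.28) did not pass the test (limma adjusted p = 0.511). The direct comparison of the mutants gave an index 4.15 higher in G609G than in LCS (SE 0.28, limma adjusted p = 8.69e-05).

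Probe set 4817758 was also low in LCS but went the other way in G609G. It read 6.57, 6.44 and 6.39 in WT, 6.69, 7.29 and 7.03 in G609G, and 4.24, 4.55 and 4.37 in LCS. None of the 3 groups overlapped, with the order LCS, WT, G609G, and all LCS values lay under the filter, so differences from LCS are again not exact in size. Its splicing index fell in LCS by 2.17 (SE 0.18, limma adjusted p = 0.00102) and rose in G609G by 1.14 (SE 0.18, limma adjusted p = 0.00592), so that G609G exceeded LCS by 3.31 (SE 0.18, limma adjusted p = 2.93e-05). As a deposited level, the G609G minus WT difference of 0.54 (SE 0.25) was not called (limma adjusted p = 0.075), and relative to the median probe set it was 1.01 (SE 0.25, limma adjusted p = 0.00342). No other of the 16 tested probe sets was called with a higher index in G609G minus WT, although 7 of the 16 differences were positive. With the plain mean as gene level, and with diffSplice, 2 were called higher, and without G609G replicate 3 it was 3.

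Probe set 4479405 was low in both mutants. Its values were 8.29, 8.43 and 8.71 in WT, 5.82, 6.28 and 5.80 in G609G, and 5.86, 6.13 and 5.73 in LCS. The mutants overlapped with each other and neither came near WT. Its level was -2.51 in G609G minus WT (SE 0.24, limma adjusted p = 3.07e-07), a 5.70-fold difference, and -2.57 in LCS minus WT (SE 0.24, limma adjusted p = 1.73e-06). The splicing index fell by 1.91 in G609G (SE 0.21, limma adjusted p = 0.00109) and by 2.66 in LCS (SE 0.21, limma adjusted p = 0.000835). Between the mutants the deposited level differed by 0.06 (SE 0.24), which did not pass the test (limma adjusted p = 0.842). The index was 0.75 higher in G609G than in LCS (SE 0.21, limma adjusted p = 0.0449), a call lost under 13 of 18 alternatives, with limma adjusted p from 0.0245 to 0.264 over all of them. With the replicate number as a block in a fit of just the WT and LCS arrays (added once the data had been seen), the LCS calls of 4479405 and 4817758 were also lost, at index differences of -2.60 and -2.11 (limma adjusted p = 0.0592 and 0.0627), while 5039122 was still called.

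In G609G minus WT the splicing index called 2 of 16 Lmna probe sets, 4479405 lower and 4817758 higher. That is 12.5% of the Lmna probe sets against 12.2% of all probe sets tested (5.68% higher, 6.51% lower), so the number called in Lmna was close to the background of this comparison. The 14 others had differences from -0.57 to 0.39 (limma adjusted p from 0.0908 to 0.776), and in 5 of them the WT and G609G arrays did not overlap, as in 30.2% of all probe sets tested. Without G609G replicate 3, 4 Lmna probe sets were called in place of 2.

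**Figure D3:**
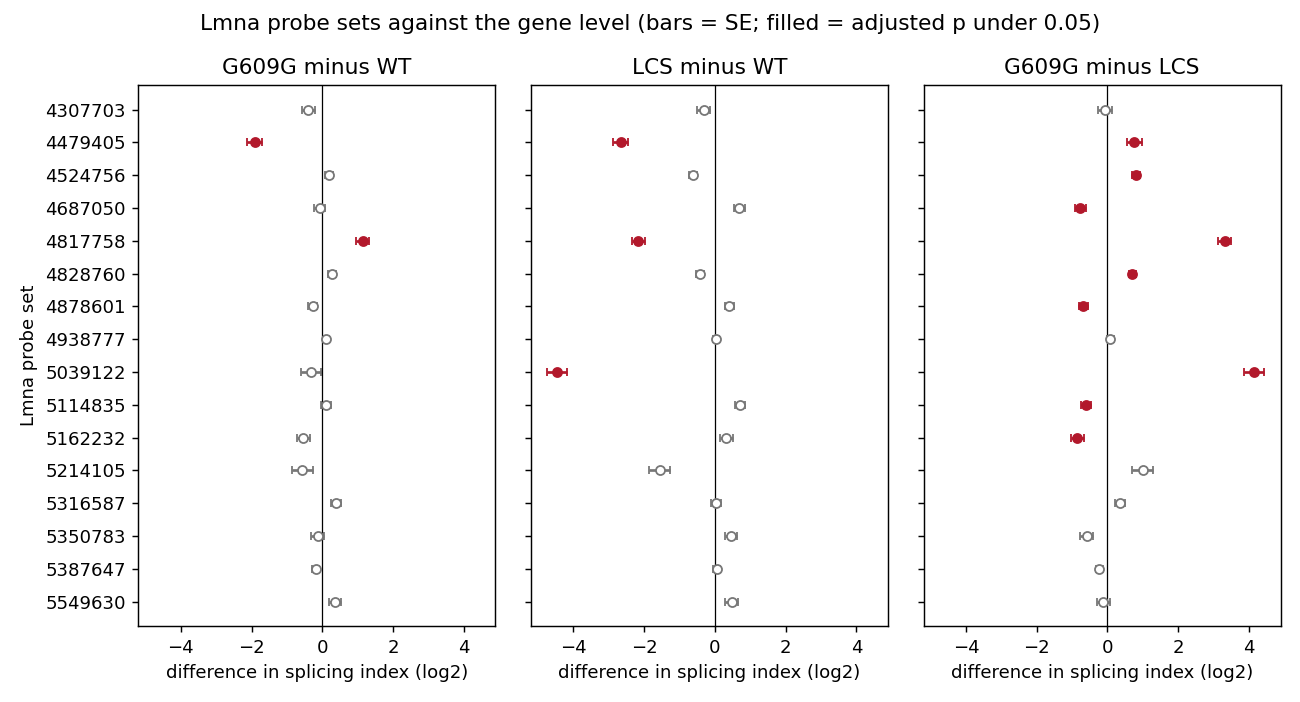
Difference in splicing index (log2, horizontal axis) of the 16 tested Lmna probe sets in the 3 comparisons; bars are standard errors and filled points passed the limma test at an adjusted p of 0.05. The largest departures are 5039122, 4479405 and 4817758 to the left in LCS minus WT, and 5039122 and 4817758 to the right in G609G minus LCS.

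Among the other 13 probe sets no difference in index passed the test in LCS minus WT, where they ran from -1.56 to 0.70 (limma adjusted p from 0.0586 to 0.983). The lowest, 5214105, read 8.32, 8.65 and 8.62 in WT, 7.17, 7.66 and 7.25 in G609G, and 6.91, 7.62 and 6.64 in LCS. Both mutants were below WT and overlapped with each other, and LCS replicate 2 was the nearest to WT of the LCS arrays. Its level fell by 1.47 in LCS (SE 0.24, limma adjusted p = 0.000591) and by 1.17 in G609G as deposited (SE 0.24, limma adjusted p = 0.00075), while its index in LCS was -1.56 (SE 0.30, limma adjusted p = 0.0609). That index difference was called without LCS replicate 2 (-1.83, limma adjusted p = 0.0083), with the replicate block over 9 arrays (limma adjusted p = 0.0401) and with diffSplice (-1.06, limma adjusted p = 6.6e-05). Probe set 5214105 is given array by array because of its values, as 5387647 and 5549630 are below, not by the naming rule.

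The direct comparison of the mutant alleles called 9 of the 16 probe sets, 5 with a higher index in G609G and 4 with a higher index in LCS. Of all tested probe sets 15.1% were called, 7.18% higher in G609G and 7.96% higher in LCS. Besides 5039122, 4817758 and 4479405, the index was higher in G609G for 4524756 by 0.80 (SE 0.12, limma adjusted p = 0.00334) and for 4828760 by 0.71 (SE 0.11, limma adjusted p = 0.00464). Both calls were lost with the plain mean as gene level (0.35 and 0.26, limma adjusted p = 0.114 and 0.11) and with diffSplice (0.37 and 0.27, limma adjusted p = 0.189 and 0.362). In 4524756 the level read 8.71, 8.69 and 8.78 in WT, 8.35, 8.15 and 8.41 in G609G, and 8.31, 7.97 and 8.32 in LCS. The WT arrays were highest and the mutants overlapped, and the gene level subtracted in the index was higher in LCS than in G609G. Probe set 4828760 read 8.49, 8.29 and 8.41 in WT, 7.99, 8.33 and 7.88 in G609G and 8.15, 7.95 and 8.06 in LCS, and there WT and G609G overlapped.

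A group of 4 probe sets was higher in LCS than in G609G relative to the gene. The brightest, 4687050, read 8.42, 8.62 and 8.81 in WT, 7.72, 8.12 and 7.97 in G609G, and 9.50, 9.39 and 9.30 in LCS. The 3 groups were separate, with LCS highest and G609G lowest. Its level rose in LCS minus WT by 0.78 (SE 0.15, limma adjusted p = 0.00196), and its index was -0.77 in G609G minus LCS (SE 0.15, limma adjusted p = 0.0115). Probe set 5114835 followed the same order, with 7.27, 7.02 and 7.29 in WT, 6.77, 6.54 and 6.74 in G609G, and 8.19, 7.69 and 8.07 in LCS. It also rose in level in LCS, by 0.79 (SE 0.21, limma adjusted p = 0.0186), and its index in G609G minus LCS was -0.61 (SE 0.14, limma adjusted p = 0.0212). Probe set 4878601 read 7.44, 7.28 and 7.46 in WT, 6.64, 6.54 and 6.37 in G609G and 7.97, 7.83 and 7.87 in LCS, again without overlap, and its index in G609G minus LCS was -0.68 (SE 0.13, limma adjusted p = 0.0102). Probe set 5162232 read 7.30, 7.05 and 6.66 in WT, 5.82, 6.15 and 5.61 in G609G, and 7.58, 7.17 and 7.48 in LCS. WT and LCS overlapped in it, G609G was lowest, and the index in G609G minus LCS was -0.86 (SE 0.18, limma adjusted p = 0.0166). With the plain median as gene level the calls of 5114835, 4878601 and 5162232 were lost (limma adjusted p = 0.0675 to 0.089). The same 3 were lost with the replicate block on 6 arrays (limma adjusted p = 0.0605 to 0.0619). The call of 4687050 was kept in both. Without LCS replicate 1 the number of Lmna probe sets called between the mutants was 5 in place of 9.

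The remaining tested probe sets, 5316587, 5350783, 5387647, 5549630, 4307703 and 4938777, passed the index test in no comparison of the main fit. Of these only 4938777 also passed under no alternative, while 5350783 passed under 5 of 19 in G609G minus LCS. In 5387647 the values were 7.95, 7.80 and 7.79 in WT, 6.85, 7.26 and 7.08 in G609G, and 8.08, 7.74 and 8.14 in LCS. Its index, the distance from the gene level, was 0.017 ± 0.058 in the WT arrays, -0.16 ± 0.12 in those of G609G and 0.067 ± 0.061 in those of LCS (SD, n = 3 each). In G609G minus LCS this index was called with the plain mean as gene level (-0.67, limma adjusted p = 0.00588). With diffSplice it was called too (-0.73, limma adjusted p = 0.00326). Probe set 5549630 was less even in G609G, where it read 6.88, 7.15 and 7.69 against 7.57, 7.41 and 7.48 in WT and 8.10, 7.96 and 8.08 in LCS.

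Read as levels, 12 of 16 Lmna probe sets were lower in G609G than in WT as deposited and none was higher, where 59% of all probe sets were called (7.82% higher, 51.2% lower). The groups did not overlap in 13 of the 16, as in 61.2% of all. Relative to the median probe set 3 were lower and 1 was higher, where 48.4% of all were called (23.2% higher, 25.2% lower). The lower ones were 4479405 (-2.03, SE 0.23), 5214105 (-0.69, SE 0.25) and 5162232 (-0.67, SE 0.25), and the higher one was 4817758. After quantile normalization 4479405 was the one still called lower, while 5214105 was -0.61 (limma adjusted p = 0.0548) and 5162232 was -0.52 (limma adjusted p = 0.107).

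In LCS minus WT 2 levels were higher (4687050 and 5114835) and 5 lower (5039122, 4479405, 4817758, 5214105 and 4524756) under both scalings. The call of 4524756 was lost under 8 of 19 alternatives, among them without any 1 of the WT or LCS arrays (limma adjusted p = 0.0521 to 0.139). That of 5114835 was lost under 4 of 19, and that of 5214105 under 1 of 19. As deposited 13.9% of all probe sets were called (7.73% higher, 6.2% lower), and relative to the median probe set 14.4% (7.23% higher, 7.18% lower). The WT and LCS levels did not overlap in 11 of the 16, as in 34.5% of all. In G609G minus LCS 2 were higher and 9 lower as deposited, where 61% of all were called (8.93% higher, 52.1% lower), and the groups did not overlap in 11 of the 16 (65.2% of all). Relative to the median probe set 5 were higher and 5 lower, where 51.8% of all were called (25.3% higher, 26.5% lower).

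As a whole gene Lmna was lowest in G609G. The median polish gave 7.90, 7.75 and 7.84 in WT, 7.14, 7.32 and 7.22 in G609G, and 7.96, 7.74 and 8.06 in LCS. The G609G arrays were separate from the others, and WT and LCS overlapped. The gene level fell in G609G minus LCS by 0.69 as deposited (SE 0.09, limma adjusted p = 7.69e-06), and relative to the median gene the difference was -0.20 (limma adjusted p = 0.0511). With the plain mean as gene level it was -0.25 (limma adjusted p = 0.0105). In that comparison 79.9% of the 11342 genes tested were called as deposited, against 73.8% after centring on the median gene. Against WT, G609G differed by -0.60 as deposited (SE 0.09, limma adjusted p = 3.25e-05; 79.5% of all genes called) and by -0.14 on the relative scale (limma adjusted p = 0.151; 70.7% called). The LCS minus WT value depended on the summary, in a comparison where 35.5% of all genes were called as deposited, against 40% when centred: median polish gave 0.09 (SE 0.09, limma adjusted p = 0.499), the plain median of the 17 probe sets 0.03, and the plain mean -0.47 (limma adjusted p = 0.000224), which takes in the falls of 5039122, 4479405 and 4817758 in full.

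The features nearest to Lmna in pattern were found by the root mean square difference over the 9 arrays, after each feature was centred on its own mean. For the gene level these were Cdc25b (0.066), a cell cycle phosphatase, the methyl-CpG-binding protein family gene Mbd3 (0.069), Lpp (0.070), the hedgehog pathway factor Gli3 (0.074) and Fxc1 (0.074). Cdc25b, for example, averaged 6.39 on the WT arrays, 5.79 on those of G609G and 6.42 on those of LCS. It was lower in G609G as Lmna was, a likeness for which the search picks. The search used deposited values, in which the median difference over genes was -0.47 in G609G minus WT and 71.3% of genes were called lower. Relative to the median gene, Lmna differed by -0.14 and was not called (limma adjusted p = 0.151).

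The nearest probe sets of other genes to the 3 departing ones were found in the same way. They were picked for likeness over these same arrays, so a shared order of the groups follows from the search and is not a separate result. For 4479405 they belonged to Lrrc46 (0.12), Ttll13 (0.17), Klhl10 (0.20), Ptprv (0.20) and Stat4 (0.21); Klhl10 is known for its part in spermatid maturation. The probe set of Lrrc46 read 8.74, 8.75 and 9.27 in WT, 6.53, 6.63 and 6.28 in G609G, and 6.27, 6.49 and 6.33 in LCS, low in both mutants as 4479405 was. For 4817758 they belonged to Asb11 (0.16), the amino acid transporter gene Slc38a4 (0.19), Mlf1 (0.20), the lactotransferrin gene Ltf (0.20) and Crisp1 (0.21), which encodes a sperm-coating protein of the epididymis. The Crisp1 probe set averaged 10.91 in WT, 11.63 in G609G and 8.73 in LCS, the order seen in 4817758. For 5039122 they belonged to the testis antizyme gene Oaz3 (0.21), BC048679 (0.25), the carboxypeptidase gene Cpn1 with 2 probe sets (0.26 and 0.32) and Cyp17a1 (0.31), a steroid-making enzyme of Leydig cells. The Oaz3 probe set read 8.69, 8.74 and 8.86 in WT, 7.66, 7.45 and 8.13 in G609G, and 4.00, 4.51 and 4.30 in LCS, the same order as 5039122.

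**Figure D4:**
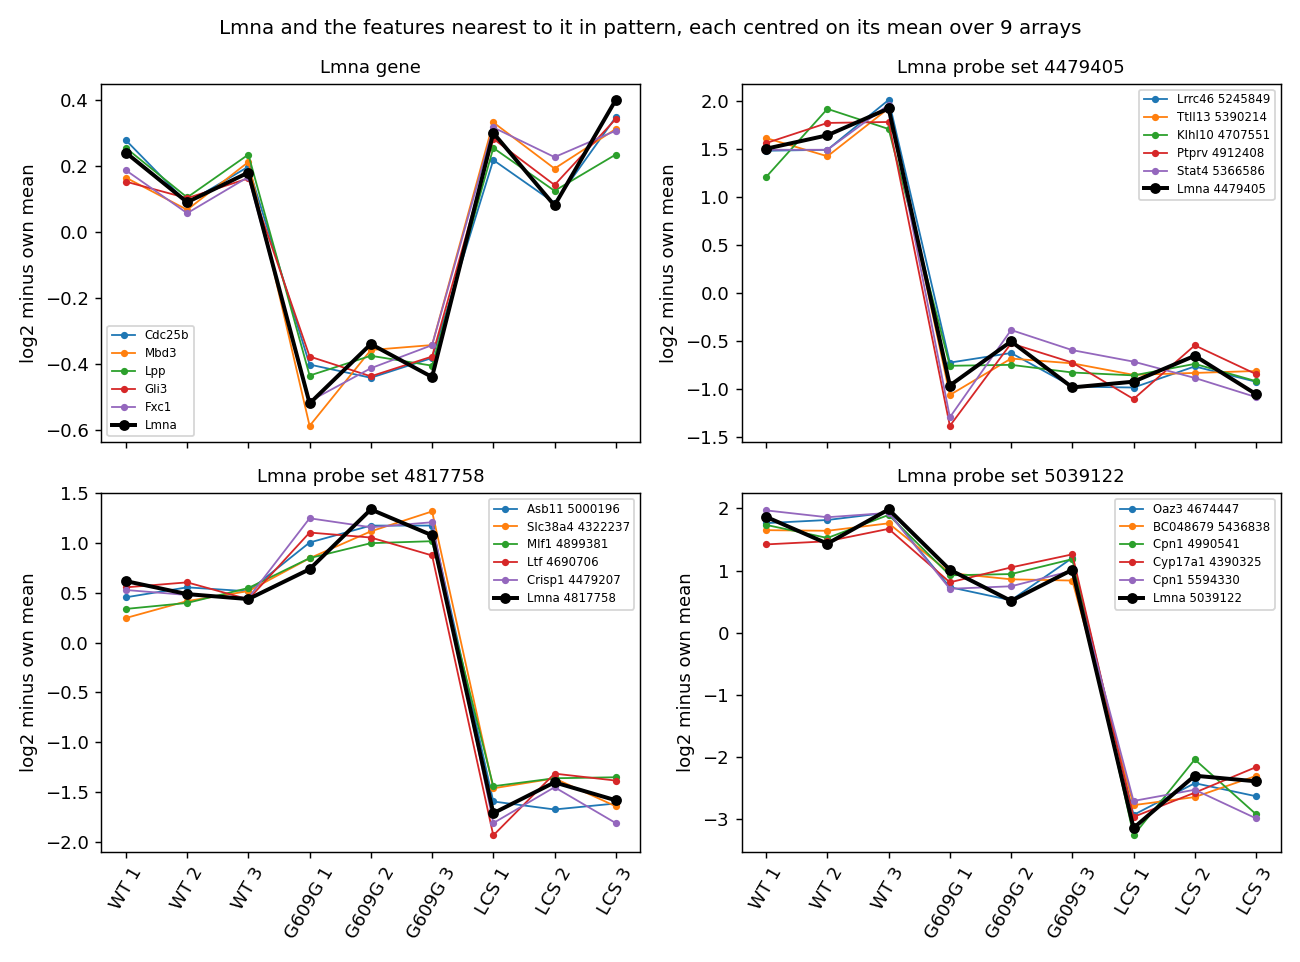
Centred log2 values (vertical axis, each feature minus its own mean) on the 9 arrays for the Lmna gene level and for 3 Lmna probe sets, in black, with the 5 nearest features of each in colour; the vertical scales differ between panels. The black lines drop on the G609G arrays for the gene level, on both mutants for 4479405, and on the LCS arrays for 4817758 and 5039122.

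Markers of the male tract differed between the groups, but not in 1 pattern. In LCS minus WT 10 of 16 genes of the epididymis and testis list were lower and 4 higher, and in G609G minus WT 14 were lower and 1 was higher as deposited. Of all genes tested 13% and 71.3% were called lower in these comparisons, and 22.5% and 8.26% higher. Relative to the median gene 10 were lower and 3 higher in LCS minus WT (17.7% and 22.3% of all genes). In G609G minus WT 13 were lower and 2 higher on that scale (36.7% and 34% of all genes). In G609G minus LCS 8 of the 16 were higher and 7 lower as deposited, where 9.38% and 70.5% of all genes were. Centred on the median gene, 10 were higher and 6 lower (36.9% and 36.9% of all genes). The mean over the list was lowest in G609G, but it takes in genes with different orders of the groups. Among those higher in G609G than in LCS, the sperm protamine Prm2 averaged 11.44 on the WT arrays, 9.70 on G609G and 7.13 on LCS, and Spint4 stood at 12.80, 12.35 and 4.80. Among those lower in G609G than in LCS, Lcn8 stood at 12.74, 4.59 and 13.08, and Gpx5 at 13.36, 5.47 and 13.47. Under the gene filter were Crisp2, Spint4 and Tnp1 in LCS, Lcn8, Rnase10 and Tnp1 in G609G, and none in WT. Of 14 muscle genes 4 were called higher in LCS than in WT, where 22.5% of all genes were. Of these 14, 8 averaged under the gene filter in WT and 8 in LCS, but none in G609G. For such genes, which passed the filter through G609G, the LCS minus WT difference rests on values near the floor. The part of tract or muscle RNA in the values of 5039122, 4479405 and 4817758 was not tested.

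Genes of lamin processing and of the nuclear envelope did not move as one block. Of 25 listed, 21 had a probe set of their own, and 20 were tested. As deposited 1 was higher and 10 were lower in G609G minus WT (median -0.15), where 8.26% of all genes were higher and 71.3% lower. Relative to the median gene 12 were higher and 6 lower (median 0.32), where 34% and 36.7% of all genes were. In LCS minus WT 5 were higher and 1 was lower as deposited (median 0.05; 22.5% and 13% of all genes), and 5 and 4 relative to the median gene (22.3% and 17.7% of all genes). In G609G minus LCS 1 was higher and 10 were lower as deposited (9.38% and 70.5% of all genes), and 11 and 6 relative to the median gene (36.9% and 36.9% of all genes).

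Of the enzymes that process prelamin A, the farnesyltransferase subunit Fntb had the widest range. Its level fell by 0.98 in G609G as deposited (SE 0.12, limma adjusted p = 2.13e-06) and rose by 0.56 in LCS (SE 0.12, limma adjusted p = 0.00152), and relative to the median gene the values were -0.52 and 0.53. The LCS call of Fntb was lost under 3 of 20 alternatives, among them the plain median as gene level (0.34, limma adjusted p = 0.178). Zmpste24 read 9.54, 9.54 and 9.58 in WT, 8.64, 8.83 and 9.07 in G609G, and 9.74, 9.65 and 9.73 in LCS. G609G minus LCS was -0.86 (SE 0.08, limma adjusted p = 2.81e-07), and -0.37 relative to the median gene. The methyltransferase Icmt changed by -0.57 in G609G as deposited (SE 0.09, limma adjusted p = 5.7e-05), and its -0.11 relative to the median gene was not called (limma adjusted p = 0.253). Among envelope proteins, Sun2, an inner membrane protein that ties the lamina to the cytoskeleton, rose in both mutants, by 0.79 in G609G (SE 0.06, limma adjusted p = 2.33e-08) and 0.30 in LCS (SE 0.06, limma adjusted p = 0.00127). Its partner Syne2 fell in both, by 1.06 (SE 0.08, limma adjusted p = 2.12e-08) and 0.26 (SE 0.08, limma adjusted p = 0.0219). Those are deposited differences. Relative to the median gene Sun2 was 1.26 in G609G and 0.27 in LCS, and Syne2 was -0.59 and -0.29, all called. The LCS call of Syne2 was lost under 9 of 21 alternatives, among them without any 1 of the WT or LCS arrays (limma adjusted p = 0.0531 to 0.0926). Banf1, a chromatin-binding partner of lamins, rose by 0.50 in LCS (SE 0.05, limma adjusted p = 5.51e-06), and in G609G it was -0.21 as deposited but 0.25 when centred on the median gene. Emerin (Emd) was 0.15 in G609G minus WT and the lamin B receptor (Lbr) -0.087, neither called as deposited, and centring gave 0.62 and 0.38, both called. In a fit of the 6 arrays of WT and G609G with the replicate number as a block, Emd was called as deposited (0.15, limma adjusted p = 0.0395). Lmnb2, which encodes lamin B2, lay under the filter, with 5.03, 5.16 and 4.99 in WT, 4.32, 4.78 and 4.44 in G609G, and 4.97, 5.26 and 4.96 in LCS.

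Of 5 genes for splicing factors known for their action on the lamin A and progerin splice sites, 3 were tested. Srsf1 was -0.43 in G609G minus WT as deposited (limma adjusted p = 0.000303), and 0.034 after centring on the median gene. Srsf6 was -0.13, not called, and 0.34. It was called lower under 8 of 21 alternatives, and higher under 2, quantile normalization and centring. Among the 8 were a fit of only the 6 arrays of WT and G609G (-0.15, limma adjusted p = 0.0428) and the same fit with the replicate block (-0.15, limma adjusted p = 0.00538). In LCS minus WT neither Srsf1 (0.06) nor Srsf6 (-0.00042) was called. Srsf5 fell by 0.17 in LCS (limma adjusted p = 0.0302), and in G609G it was -0.0033 as deposited and 0.46 when centred. The LCS call of Srsf5 was lost under 6 of 21 alternatives, among them the plain mean as gene level (-0.11, limma adjusted p = 0.278). Hnrnpa1 had 1 probe set, which is too few for the test, at 9.21, 9.11 and 9.33 in WT, 9.57, 9.57 and 9.47 in G609G, and 9.47, 9.78 and 9.53 in LCS. The sign of the G609G difference turned with the scaling for Srsf1, Srsf5 and Srsf6.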

How the data were processed

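RNA was measured on 1-colour Affymetrix exon arrays with biotin labelling, per the labels' protocols. The values are log2 intensities as deposited, 1 per probe set and array. The sources used here do not say how the authors normalized them, and name mm9 in the submitters' processing notes. The submitters' design mentions 10 samples; 9 arrays, grouped by title, were analysed. The Lmna probe sets, the gene lists and the choice of the splicing index over diffSplice (1 falling probe set shifts the mean of the others) were made with earlier results of these data known.

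Probe set levels, splicing indices and gene levels were tested with limma (lmFit, then eBayes with a trend) over all 9 arrays, with Benjamini-Hochberg adjustment over every feature tested and a threshold of 0.05. Gene levels came from median polish (up to 10 rounds); a gene needed 3 or more probe sets and an average over 5.09, the 25th percentile of such genes, a population settled after a first run. Array-by-array values are given for probe sets called by the splicing index and for the 2 brightest and 2 dimmest; 5 nearest features are named per pattern; Zmpste24, Icmt, Lmnb2, Emd, Lbr and the 4 lamina genes of lowest p are named, as are all splicing factors. Tract genes are examples chosen after their values were seen. Current symbols were matched to older array symbols with RefSeq (GRCm38.p6, names only); Lmnb1, Syne3, Lemd3, Tpr and Srsf2 were not analysed here.

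Equal replicate numbers were used as a block only in alternative fits, and the labels do not say that they pair arrays. The deviations of same-numbered WT and G609G arrays from their group means correlated at r = 0.14, 0.11 and 0.26. For WT and LCS r was -0.078, 0.13 and 0.052, and for G609G and LCS it was -0.069, 0.11 and 0.080. Arrays of unlike number were not compared, so these values do not show a pairing, and the main tests use none. No pair of arrays shared over 1.89% of values. The procedures were checked on simulated data. Software was R 4.3.3 with limma 3.58.1 and data.table (version 1.17.8), and Python 3.11.15 with matplotlib 3.10.9.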

Additional observations from a re-analysis of the deposited data

How the results depend on the processing

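The fall of 5039122 in LCS was called under each of 19 alternatives, with an index difference from -4.61 to -3.90, and the falls of 4479405 and 4817758 under 17 of 18 each. The number of Lmna probe sets called by the splicing index in LCS minus WT was 3, against 8 with the plain mean as gene level, 10 with diffSplice, 5 after quantile normalization, 1 with the filter on the 50th percentile, which leaves out 4479405 and 4817758, and 1 with the replicate block on 6 arrays. In G609G minus WT it was 2, and 0 with the filter on the 50th percentile; in G609G minus LCS it was 9, and 5 with the replicate block on 6 arrays. Leaving out 1 array gave 3 to 5, 2 to 4 and 5 to 11 in these comparisons. The count of 5 in LCS minus WT came without G609G replicate 2. With the replicate block over all 9 arrays, 4, 2 and 10 were called.

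By level, G609G minus WT had 12 called probe sets, against 2 after quantile normalization and 4 relative to the median probe set, and 7 in LCS minus WT, against 4 by the methods' t-test after Benjamini-Hochberg adjustment, 10 (5 higher, 5 lower) in a fit of the 6 arrays and 9 (4 higher, 5 lower) with the replicate block on them. Without 1 array the counts were 10 to 13 and 5 to 8, and 10 to 13 in G609G minus LCS. The Lmna gene lost its calls after quantile normalization (-0.082 in G609G minus WT, -0.053 in G609G minus LCS) and relative to the median gene (-0.14 and -0.20). Without 1 array it ran from -0.68 to -0.60, -0.76 to -0.63 and, in LCS minus WT, 0.014 to 0.094. In LCS minus WT the plain mean turned it to -0.47.

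Some G609G differences turned with quantile normalization or centring. In G609G minus WT Banf1 gave 0.12 and 0.25, Lbr 0.41 and 0.38, Srsf1 0.023 and 0.034, Srsf5 0.32 and 0.46, Srsf6 0.23 and 0.34, and probe set 4524756 0.059 and 0.053; after quantile normalization 4938777 gave 0.0033 and 5114835 0.13. In G609G minus LCS Srsf6 gave 0.28 and 0.37, and Srsf1 0.011 when centred. Where no construction is named, the cause was not tested. The number of arrays limits the precision.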
